A study of Mus musculus with 6 samples.

Results

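The genes of the unfolded protein response and of protein folding in the endoplasmic reticulum (ER) were examined in Hepa1-6 cells, an established mouse hepatoma line that arose in the mouse strain C57/L. They are 37 named genes of the 25078 in the deposited tables, chosen by symbol from what they are known to do. Earlier results of these data were known when the choice was made. All 37 were found. By role, 23 are chaperones, folding enzymes and components of ER-associated degradation (ERAD), 7 belong to the PERK-ATF4 branch and 7 are stress sensors, their transcription factors and an ER membrane protein. The 6 libraries came from untreated parental cells (wt, 1 library), from cells carrying a lentiviral scramble vector (scr, 2 libraries, 25-2 and 50-1 in the titles) and from cells carrying a lentiviral shRNA vector against midnolin (kd, 3 libraries, 25-3, 50-2 and 50-5). The scr and kd cells shared puromycin selection and colony isolation by limiting dilution, steps that the protocol gives for transduced cells and not for wt. A kd library may therefore stand for a clone grown from a single cell, and the labels do not say which clone each library holds, whether any libraries share one, or what 25 and 50 mean. The titles call the kd libraries KO, whereas the treatment label gives an shRNA vector, so the name kd is used here.

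When unfolded proteins build up in the ER, sensors in its membrane respond. IRE1 (gene Ern1) splices the mRNA of Xbp1 into the form that encodes an active transcription factor, ATF6 is cut to release another, and PERK (gene Eif2ak3) phosphorylates eIF2α, which lowers translation in general while that of ATF4 rises. XBP1 and ATF6 are known chiefly for inducing chaperones and ERAD genes, and ATF4 for inducing amino acid metabolism genes and the factor CHOP (gene Ddit3). Hepatocytes secrete large amounts of plasma protein and keep a well-developed ER, and in liver XBP1 is also known for its part in lipid synthesis.

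The libraries held 25586301 to 33119710 counted reads. Midn, the target of the shRNA, had 50.8 to 60.5 RPKM (reads per kilobase of exon, scaled to library size by the TMM method) in the 3 control libraries and 20.3 to 22.1 in the 3 kd libraries. Of 10 hepatocyte markers, 2 (Alb and Afp) were lower in all kd libraries than in all controls and 2 (Krt18 and Serpina1b) were higher. Albumin (Alb), the main protein that hepatocytes secrete, had 1877 to 2804 RPKM in the controls and 336, 62.7 and 20.9 in kd 25-3, 50-2 and 50-5. Its log2 fold change against scr was -4.08 (SE 1.12, FDR 0.0718, edgeR quasi-likelihood test described below). Krt18 went the other way, with 408 to 569 RPKM in the controls and 821, 1160 and 632 in kd 25-3, 50-2 and 50-5. Apoa1 and Serpina1b, also hepatocyte markers, were at most 1.59 and 2.33 RPKM in any library. Of the 14 markers of endothelial cells, leukocytes and fibroblasts, all but Pecam1, Cd68 and Dcn stayed under 1 RPKM in every library. The markers of each of these types summed to 0.163 to 2.89, 3.04 to 4.63 and 562 to 1029 RPKM in the controls and to 0.147 to 0.371, 6.31 to 9.37 and 409 to 573 in kd, and Dcn made up nearly all of the fibroblast sum. The part of the hepatocyte and other markers in the results that follow was not tested, and in cell populations fewer cells of a kind and less RNA per cell cannot be told apart.

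Knockdown was compared with scr by edgeR's quasi-likelihood method, with FDR values adjusted by Benjamini-Hochberg over the 11647 genes whose RPKM exceeded 1 in any library. Of the 37 genes, 35 passed that filter, and 6 were called at an FDR under 0.05 with a fold change of at least 1.5. The genes that fell were Ern1, Xbp1, Herpud1, Pdia6 and Dnajb9, and the gene that rose was Wfs1. Over all genes tested, 5.25% were called lower and 5.33% higher, against 5 and 1 of these 35. DESeq2, which called 9.89% of all genes lower and 9.93% higher, called 6 of the 35 lower, P4hb being the gene added, and 1 higher. All 3 kd libraries lay below all 3 controls in 9 of the 35 genes, where 19.7% of all genes did, and above them in 3, where 20.1% of all genes did. The median log2 fold change was -0.20 over the 35 genes and -0.01 over all genes tested.

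**Figure D1:**
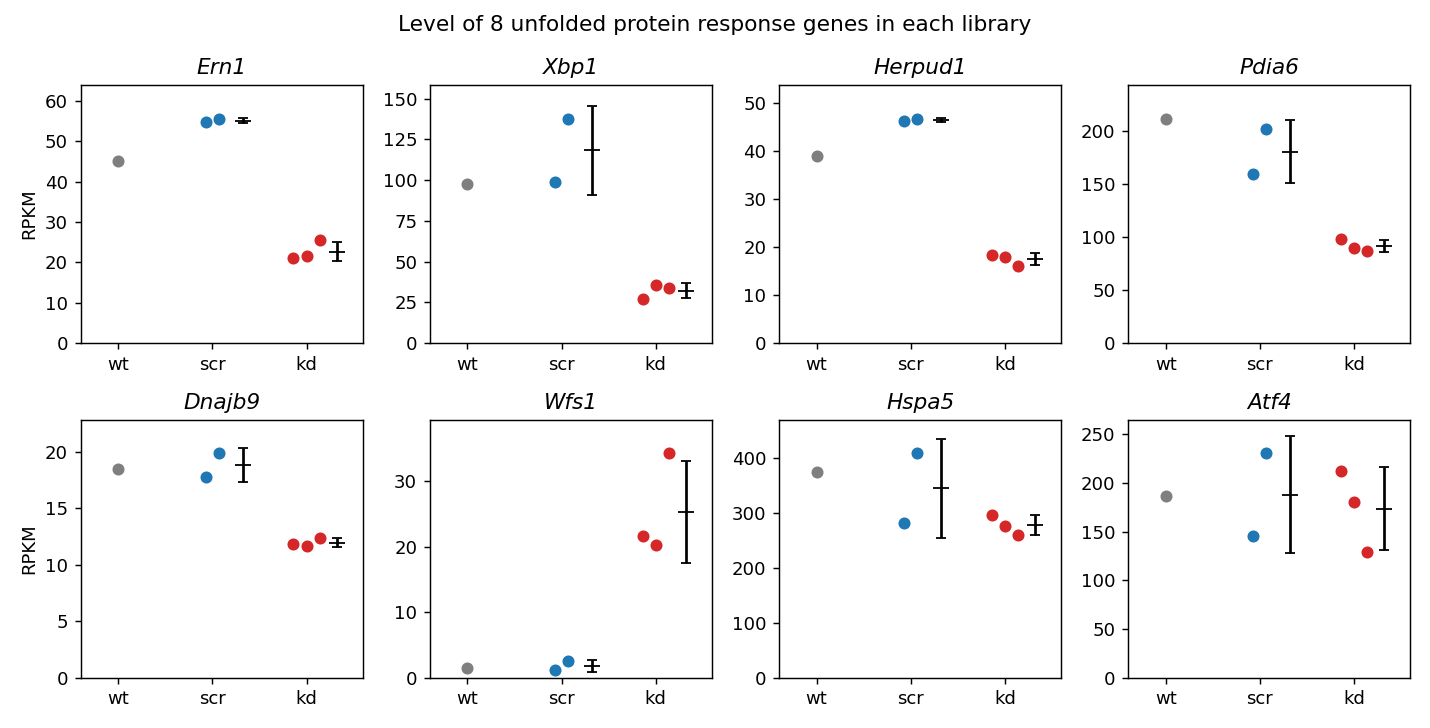
Level in RPKM (vertical axis, from 0) of 8 genes in each library, 1 point per library, with the mean and SD beside the scr (n = 2) and kd (n = 3) points. For Ern1, Xbp1, Herpud1, Pdia6 and Dnajb9 the kd points lie below every control point, for Wfs1 above, and for Hspa5 and Atf4 they overlap the scr points.

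Of the sensor genes, Ern1 fell, and Eif2ak3, Atf6 and Atf6b were not called. Ern1 (chromosome 11 of mm10, 106397620 to 106487796), which encodes IRE1, had 45.1 RPKM in wt, 54.7 and 55.6 in scr 25-2 and 50-1, against 21.1, 21.5 and 25.4 in kd 25-3, 50-2 and 50-5. The kd libraries were all below the controls, and the scr libraries were close to each other. Its log2 fold change was -1.29 (SE 0.139, FDR 0.00901, edgeR quasi-likelihood test). Xbp1 (chromosome 11, 5520641 to 5525993), whose mRNA IRE1 splices, had 97.7 RPKM in wt, 99.1 and 138 in scr 25-2 and 50-1, against 27.1, 35.9 and 33.6 in the kd libraries. It fell by 1.89 on the log2 scale (SE 0.199, FDR 0.00881, edgeR quasi-likelihood test), from a mean of 118 ± 27.4 RPKM (SD, n = 2) to 32.2 ± 4.54 (SD, n = 3). Counts per gene do not separate the spliced from the unspliced form, so the share of Xbp1 mRNA that was spliced is not given by these data.

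Wfs1 (chromosome 5, 36966104 to 36988982) encodes wolframin, an ER membrane protein mutated in Wolfram syndrome and known as a target of the unfolded protein response in secretory cells. It had 1.45 RPKM in wt, 1.18 and 2.49 in scr 25-2 and 50-1, against 21.6, 20.2 and 34.3 in kd 25-3, 50-2 and 50-5. The gene was near the filter in every control library and well above it in every kd library. The log2 fold change was 3.78 (SE 0.449, FDR 0.0114, edgeR quasi-likelihood test), opposite in direction to that of Ern1 and Xbp1. With kd 50-2 left out, Ern1, Xbp1 and Wfs1 had log2 fold changes of -1.25, -1.96 and 3.93, but their FDR was 0.0605, 0.0532 and 0.0532 in the same test. Left out in turn, none of the other 4 scr and kd libraries ended the call of any of these genes.

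Eif2ak3 (chromosome 6, 70844515 to 70905241), which encodes PERK, had 10.3 RPKM in wt, 8.25 and 9.19 in scr 25-2 and 50-1, against 10.5, 11.1 and 7.63 in kd. Its kd values lay on both sides of the scr values (log2 fold change 0.15, SE 0.191, FDR 0.643). Atf6 (chromosome 1, 170704457 to 170867771) had 19.0 RPKM in wt, 31.6 and 16.8 in scr 25-2 and 50-1, against 24.4, 23.5 and 24.1 in kd. All kd values of Atf6 were between those of the scr libraries, with a log2 fold change of -0.03 (SE 0.270) that ran from -0.41 without scr 50-1 to 0.52 without scr 25-2. Atf6b, a paralogue of ATF6, had 17.3 RPKM in wt, 19.0 in both scr libraries and 12.7 to 15.8 in kd. The kd libraries were below every control, but the test did not call Atf6b (log2 fold change -0.44, SE 0.143, FDR 0.103). Creb3l3, a liver factor cut like ATF6, had 1 to 10 counts per library and was not tested.

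Of the chaperones proper, Dnajb9 fell, while the abundant Hsp70 and Hsp90 of the ER were not called. Hspa5 (chromosome 2, 34772090 to 34776529), the ER Hsp70 known as BiP, had 375 RPKM in wt, 281 and 409 in scr 25-2 and 50-1, against 297, 277 and 260 in kd. The kd values lay on both sides of that of scr 25-2 and below that of scr 50-1, and the log2 fold change was -0.32 (SE 0.188, FDR 0.297, edgeR quasi-likelihood test). It was -0.55 without scr 25-2 and -0.02 without scr 50-1, so its size rested on which scr library was used. Hsp90b1, the ER Hsp90 (GRP94), had 564 RPKM in wt, 427 and 447 in scr, against 296 to 340 in kd, and its log2 fold change of -0.44 (SE 0.128) had an FDR of 0.0794. Here the scr libraries were alike and every kd library was below every control, and the FDR was 0.00440 in DESeq2, with a change smaller than 1.5-fold.

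Of the J-domain co-chaperones of BiP tested, Dnajb9 was called. Dnajb9 (ERdj4; chromosome 12, 44205897 to 44210068), a known XBP1 target, had 18.5 RPKM in wt, 17.8 and 19.9 in scr, against 11.8, 11.6 and 12.4 in kd. It fell by 0.67 on the log2 scale (SE 0.134, FDR 0.0367, edgeR quasi-likelihood test), with kd below all controls. Its call was lost when any of the kd libraries or scr 50-1 was left out, with an FDR of up to 0.157 and a log2 fold change between -0.70 and -0.58. The call was also lost with the title number (25 or 50) as a term (FDR 0.0622) and without the filter on RPKM (FDR 0.0522), both in the edgeR quasi-likelihood test. Dnajb11 (ERdj3) had 34.05 RPKM in wt, 27.3 and 34.4 in scr, against 19.6 to 21.7 in kd, a log2 fold change of -0.58 (SE 0.146) with an FDR of 0.0596. It was also below every control, and the FDR was 0.0258 when wt was joined to the scr libraries as controls. Dnajc3 (p58IPK), which also restrains PERK, had 16.2 to 20.8 RPKM in controls and 16.6 to 20.6 in kd, which overlapped fully.

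The folding enzymes and lectins gave 1 call. Pdia6 (chromosome 12, 17266589 to 17284785), a protein disulphide isomerase that is also known to attenuate IRE1 signalling, had 212 RPKM in wt, 160 and 202 in scr 25-2 and 50-1, against 97.8, 89.8 and 86.7 in kd. Its kd values were close to each other and below every control, with a log2 fold change of -0.99 (SE 0.146, FDR 0.0175, edgeR quasi-likelihood test). The FDR rose to 0.0710, 0.0928 and 0.0705 when kd 25-3, 50-2 or 50-5 was left out. P4hb, the archetypal disulphide isomerase, had 530 RPKM in wt, 425 and 790 in scr, against 306 to 358 in kd, also below every control. The log2 fold change of P4hb was -0.87 (SE 0.266, FDR 0.0892), and it was -1.24 without scr 25-2 and -0.36 without scr 50-1. Pdia3 and Pdia4, further isomerases, had log2 fold changes of -0.20 and -0.18, and the lectin chaperones Calr and Canx, which hold glycoproteins during folding, had -0.27 and -0.11. None of these 4 separated kd from the controls.

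Further ER stress targets were not called either. Hyou1 (GRP170, an exchange factor for BiP), Sdf2l1 (a partner of ERdj3) and Manf (a secreted ER protein) had log2 fold changes of -0.38, -0.51 and -0.40, with an FDR between 0.212 and 0.269 in the edgeR test. Creld2, a further ER stress-inducible protein, had 25.6 RPKM in wt, 15.4 and 31.0 in scr, against 23.1, 27.2 and 17.7 in kd. Its kd values lay between those of the scr libraries.

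Of the ERAD genes among the 37, Herpud1 was the 1 called. Herpud1 (chromosome 8, 94386429 to 94395371), which encodes HERP, a membrane scaffold of the HRD1 ubiquitin ligase complex, had 39.0 RPKM in wt, 46.3 and 46.8 in scr 25-2 and 50-1, against 18.2, 18.0 and 16.03 in kd. The log2 fold change was -1.43 (SE 0.121, FDR 0.00643, edgeR quasi-likelihood test), and Herpud1 was called in all 13 alternative fits. Syvn1, the HRD1 ligase itself, had 7.41 RPKM in wt, 10.7 and 7.65 in scr, against 14.6, 13.7 and 13.1 in kd, above every control and so opposite to Herpud1. Its log2 fold change of 0.58 (SE 0.183) had an FDR of 0.0965 against scr and of 0.0428 with wt joined to the controls. Syvn1 overlaps Mrpl49 on the other strand by 89 bases, and Mrpl49 had 719 to 1571 counts in the controls and 2015 to 2419 in kd. Without the strand setting of the counting, reads of the overlap cannot be assigned, and the part of Mrpl49 in the Syvn1 value was not tested.

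Sel1l, the adaptor of HRD1, had 10.6 RPKM in wt, 12.3 and 12.8 in scr, against 8.08 to 10.6 in kd (log2 fold change -0.43, SE 0.155, FDR 0.125). Edem1, which directs mannose-trimmed glycoproteins to ERAD, had 39.1 RPKM in wt, 27.6 and 20.7 in scr, against 25.3 to 34.5 in kd, with wt the highest. Derl1 and Derl2, candidate channel proteins for retrotranslocation, had log2 fold changes of -0.26 and 0.14 (Derl2 overlaps Mis12 on the other strand by 231 bases), and Sec61b, a subunit of the import channel, had 0.01. Derl3 had 1 to 4 counts per library and was not tested. Over the 22 chaperone and ERAD genes tested, 3 fell and 0 rose, the FDR of the others being above 0.05. DESeq2 also called 0 of them higher and 4 lower, the fourth being P4hb. An unadjusted p under 0.05 was reached by 8 of the 22, where 31.4% of all genes tested reached it, and 17 of the 22 had a fold change below 1, where 5927 of the 11647 genes did.

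**Figure D2:**
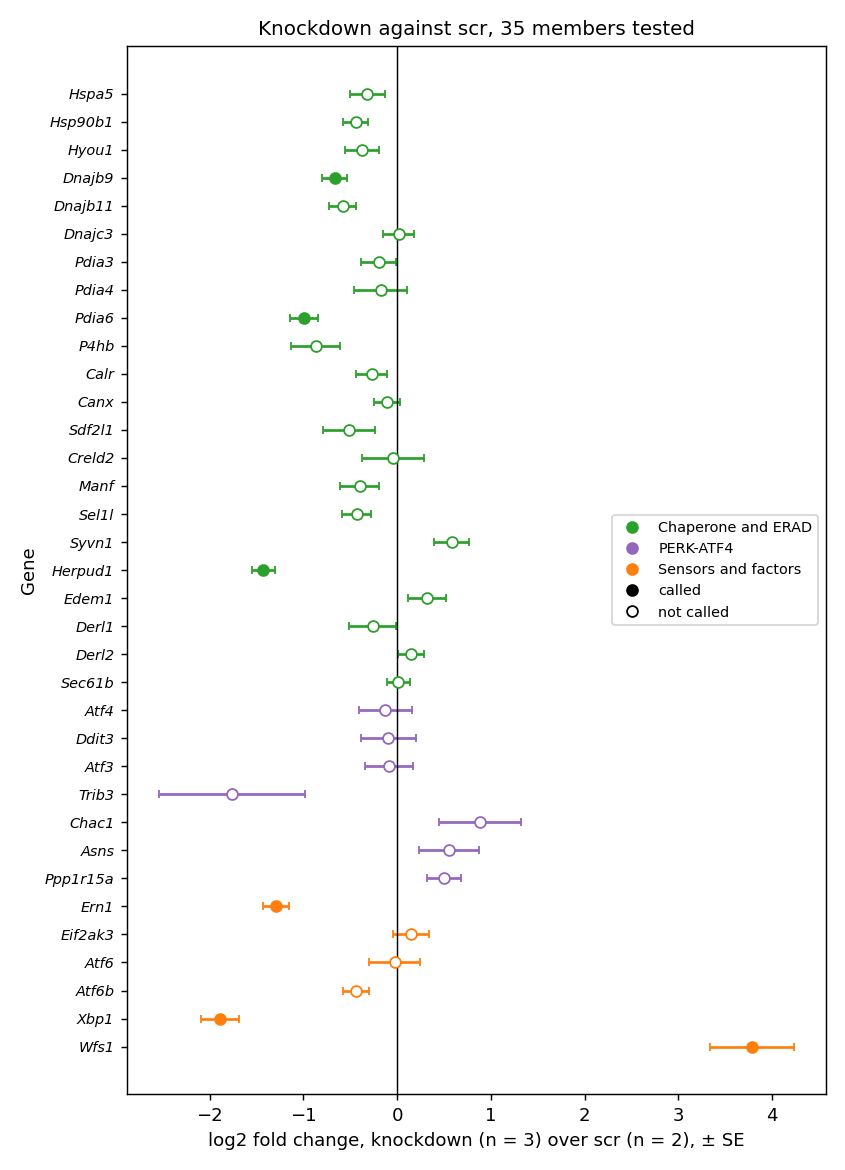
Log2 fold change of kd (n = 3) over scr (n = 2) with its SE for the 35 genes tested (1 row per gene, coloured by role). Filled points are the 6 called genes, of which Wfs1 alone lies to the right of 0.

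The size of the chaperone change depended on which scr library it was measured against. In scr 50-1, 20 of the 22 chaperone and ERAD genes were higher than in scr 25-2, whereas 51.4% of all genes tested were, and the median log2 difference of scr 50-1 over scr 25-2 was 0.34 for these 22 genes and 0.01 for all. All 3 kd libraries lay below scr 50-1 in 18 of the 22 genes and below scr 25-2 in 7, where 38.3% and 36.6% of all genes did. They lay above scr 50-1 in 2 and above scr 25-2 in 7, where 38.4% and 38.6% of all genes did. They lay below wt in 18 of the 22, where 38.2% of all genes did. The median log2 fold change of the list was -0.30 against both scr libraries, -0.49 without scr 25-2 and -0.03 without scr 50-1. Without scr 25-2 the test called 7 of the 22 lower and 1 higher, and without scr 50-1 it called 2 lower. Over all genes the same fits called 1134 lower and 1137 higher without scr 25-2, and 613 lower and 661 higher without scr 50-1. Herpud1 and Pdia6 were called lower in both cases .

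Some of these genes share a promoter motif. They were chosen by known function, which is not independent of such motifs, so the counts that follow are a description. In the promoter window of each gene (250 bases before to 50 after its start, RefSeq, build GRCm38.p6, which is mm10), the ER stress response element ERSE (CCAAT, any 9 bases, CCACG, on either strand) was found in 9 of the 33 of these genes that have a window. All 9 are chaperone or ERAD genes, and over all 27025 genes with a window 0.137% held it. ERSE-II (ATTGG, any base, CCACG) was found in Herpud1 and Dnajb11 and in 0.0444% of all genes, and UPRE, TGACGTGG, in 0 of the 33 and in 0.714% of all genes. Any base may stand at N. The promoters of Herpud1 and Pdia6, which fell, and of Hspa5, which was not called, are shown as the 250 bases before the start, with the matched motifs in capitals. In Herpud1 the first block of capitals is a CARE motif, described with the ATF4 genes, and the second is ERSE-II.
Herpud1, chr8:94386179-94386428, plus strand: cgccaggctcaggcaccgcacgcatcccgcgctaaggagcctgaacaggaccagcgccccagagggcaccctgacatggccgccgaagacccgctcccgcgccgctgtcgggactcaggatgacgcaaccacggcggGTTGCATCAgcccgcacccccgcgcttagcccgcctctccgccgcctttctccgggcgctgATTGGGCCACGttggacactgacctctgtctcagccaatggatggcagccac
Pdia6, chr12:17266339-17266588, plus strand: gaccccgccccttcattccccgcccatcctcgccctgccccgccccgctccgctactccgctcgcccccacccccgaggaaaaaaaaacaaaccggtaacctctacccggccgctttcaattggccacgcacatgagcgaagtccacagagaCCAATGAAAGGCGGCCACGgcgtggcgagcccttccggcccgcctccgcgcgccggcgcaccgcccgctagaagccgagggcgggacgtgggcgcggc
Hspa5, chr2:34771840-34772089, plus strand: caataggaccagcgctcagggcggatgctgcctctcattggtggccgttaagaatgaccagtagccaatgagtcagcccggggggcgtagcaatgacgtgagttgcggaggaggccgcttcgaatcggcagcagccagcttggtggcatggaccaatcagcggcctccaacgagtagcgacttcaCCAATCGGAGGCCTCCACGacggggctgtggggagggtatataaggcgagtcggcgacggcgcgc
The ERSE of Pdia6 begins 98 bases before the start and that of Hspa5 begins 65 bases before it, in the same orientation. The remaining ERSE matches, and the ERSE-II of Dnajb11 just after its start, are shown with 8 bases on each side to allow their spacing and orientation to be compared (motif in capitals, read along the gene's own strand).
Calr, chr8:84847067-84847101, minus strand: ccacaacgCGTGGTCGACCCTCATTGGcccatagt
Canx, chr11:50325792-50325826, minus strand: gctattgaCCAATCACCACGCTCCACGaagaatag
Creld2, chr15:88819512-88819546, plus strand: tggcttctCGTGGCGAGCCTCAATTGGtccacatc
Derl3, chr10:75893234-75893268, plus strand: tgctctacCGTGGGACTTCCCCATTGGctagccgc
Dnajc3, chr14:118937819-118937853, plus strand: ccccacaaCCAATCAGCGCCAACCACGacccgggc
Hsp90b1, chr10:86705630-86705664, minus strand: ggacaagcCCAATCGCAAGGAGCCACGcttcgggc
Hsp90b1, chr10:86705525-86705559, minus strand: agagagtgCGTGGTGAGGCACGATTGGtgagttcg
Syvn1, chr19:6046524-6046558, plus strand: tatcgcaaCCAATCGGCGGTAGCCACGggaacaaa
Dnajb11, chr16:22857844-22857870, plus strand: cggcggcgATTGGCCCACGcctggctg
Of the 8 ERSE genes that were tested, 1 fell (Pdia6) and 7 were not called, Hspa5, Hsp90b1, Calr, Canx, Creld2, Dnajc3 and Syvn1. Over all genes tested, 5.25% were called lower and 10.6% in either direction, and so few genes cannot be told from that share. Hsp90b1 holds 2 matches in opposite orientations. Ern1, Xbp1, Dnajb9 and Wfs1, which were called, held none of the searched motifs in this window. Only exact matches to the given letters were sought, so variant or more distant elements were not covered. Atf6, Derl1, Hyou1 and Manf have no window and were not searched. A match is a description of letters, and whether a factor binds there in these cells was not measured.

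The PERK-ATF4 genes gave no call in either direction, where 10.6% of all genes tested were called and 31.4% had an unadjusted p under 0.05. Of the 7 genes, 0 were called by the edgeR quasi-likelihood test or by DESeq2, and 1, Ppp1r15a, had an unadjusted p under 0.05 (0.0340, edgeR quasi-likelihood test). The median log2 fold change of the 7 genes was -0.09, and its sign changed when kd 50-5 (0.11) or scr 50-1 (0.24) was left out. Atf4 (chromosome 15, 80255184 to 80257545), the factor itself, had 187 RPKM in wt, 146 and 230 in scr 25-2 and 50-1, against 212, 180 and 129 in kd 25-3, 50-2 and 50-5. The kd and scr values overlapped (log2 fold change -0.13, SE 0.280, FDR 0.797). Since ATF4 is controlled largely by translation, its mRNA level does not give the amount of protein. Ddit3 (chromosome 10, 127290793 to 127296288), which encodes CHOP, had 21.8 RPKM in wt, 15.2 and 13.8 in scr, against 12.8, 18.3 and 9.99 in kd. Its log2 fold change was -0.09 (SE 0.290, FDR 0.856), with the highest value in wt and the lowest in kd 50-5. Ddit3 overlaps Mars, an aminoacyl-tRNA synthetase gene on the other strand, by 68 bases.

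The targets of ATF4 and CHOP follow. Ppp1r15a (GADD34), which directs the dephosphorylation of eIF2α, had 12.5 RPKM in wt, 14.0 and 18.8 in scr, against 21.1, 25.9 and 22.9 in kd, above every control (log2 fold change 0.50, SE 0.179, FDR 0.128). Asns, asparagine synthetase, had 102 RPKM in wt, 44.0 and 90.0 in scr, against 113, 83.3 and 100.3 in kd. Its log2 fold change was 0.55 (SE 0.321, FDR 0.296), and without scr 50-1 it was 1.16 with an FDR of 0.0335. Chac1, which degrades glutathione, had 2.69 RPKM in wt, 1.88 and 2.24 in scr, against 5.24, 4.20 and 2.08 in kd, so kd 50-5 lay within the controls.

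Trib3, a pseudokinase induced through ATF4 and CHOP, varied widely, with 11.2 RPKM in wt, 3.48 and 19.0 in scr 25-2 and 50-1, against 4.74, 3.82 and 1.44 in kd. Its log2 fold change of -1.76 (SE 0.778, FDR 0.187) became -2.51 without scr 25-2 (FDR 0.0358) and -0.07 without scr 50-1. Atf3, a stress-induced factor, had 23.0 RPKM in wt, 12.8 and 15.8 in scr, against 9.50 to 16.1 in kd, and wt was the highest. The CARE motif through which ATF4 acts, TGATGNAAN on either strand, was found in 4 of these 7 genes and in Herpud1, and in 4.50% of all genes with a window. The matches of the 4 genes are shown with 8 bases on each side, the motif in capitals.
Asns, chr6:7693216-7693240, minus strand: cagccacaTGATGAAACttcccgca
Atf3, chr1:191183428-191183452, minus strand: ttctcgcaCTTGCATCAccaagtcc
Chac1, chr2:119351040-119351064, plus strand: tccctgccGTTGCATCActcctgcc
Trib3, chr2:152344031-152344055, minus strand: agctcaggTTTACATCAgccgggcg
The match in Trib3 begins 14 bases into the transcript and the others lie before the start. None of these 4 genes was called, where 10.6% of all genes tested were.

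The lists were then set side by side in every library, as the median over each list of the log2 ratio of RPKM to the scr mean, with 0.1 RPKM added. The chaperone and ERAD list stood at -0.18 in scr 25-2, 0.16 in scr 50-1 and 0.05 in wt. In kd 25-3, 50-2 and 50-5 it stood at -0.21, -0.23 and -0.39, which is below every control. With the mean of all 3 controls as the reference, kd 25-3 (-0.21) and kd 50-2 (-0.24) were no longer below scr 25-2 (-0.25), and kd 50-5 (-0.44) alone was. The PERK-ATF4 list stood at -0.23, 0.20 and 0.37 in scr 25-2, scr 50-1 and wt, and at 0.17, 0.31 and -0.53 in the kd libraries. Kd 25-3 and 50-2 lay among the controls and kd 50-5 was the lowest of all libraries. In kd 25-3 and 50-2 the PERK-ATF4 list was above the chaperone list, and in kd 50-5 it was below it. The order in kd 50-5 depended on which genes each list held. With Xbp1 added to the chaperone list and Eif2ak3 to the PERK-ATF4 list, kd 50-5 stood at -0.40 and -0.36. The PERK-ATF4 list was then above the chaperone list in all 3 kd libraries. The lists differ in size (23 and 7 genes), their genes are not replicates, and the difference between them was not tested. Over all genes tested the same median stayed between -0.02 and 0.01 in every library.

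**Figure D3:**
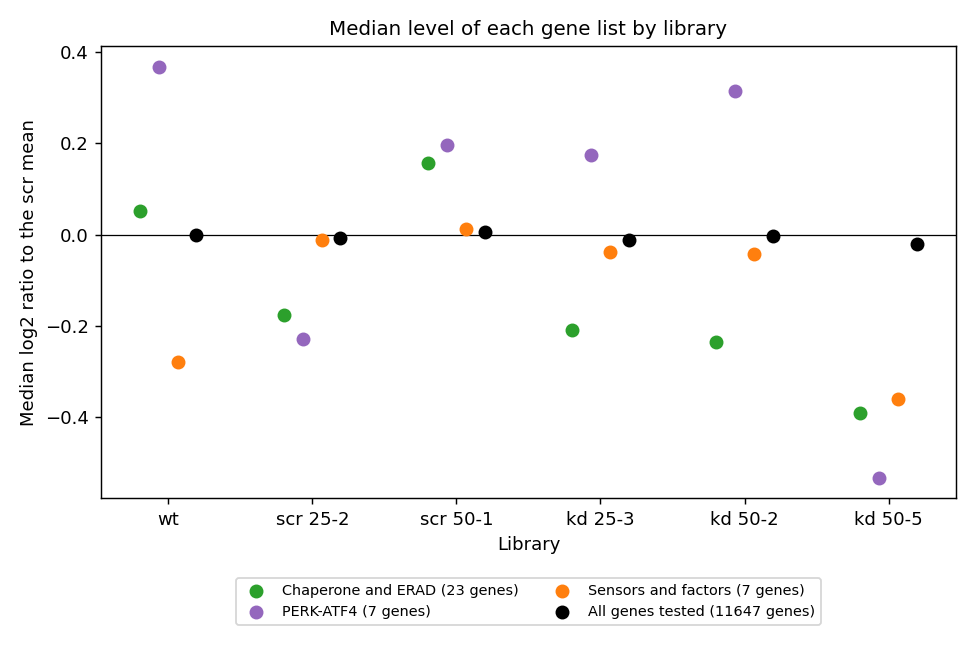
Median log2 ratio of RPKM to the scr mean (vertical axis) in each of the 6 libraries for the chaperone and ERAD, PERK-ATF4 and sensor lists and for all 11647 genes tested. The chaperone points of kd, from -0.39 to -0.21, are the lowest chaperone points, with that of scr 25-2 just above at -0.18, while the PERK-ATF4 points of kd run from -0.53 to 0.31.

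**Figure D4:**
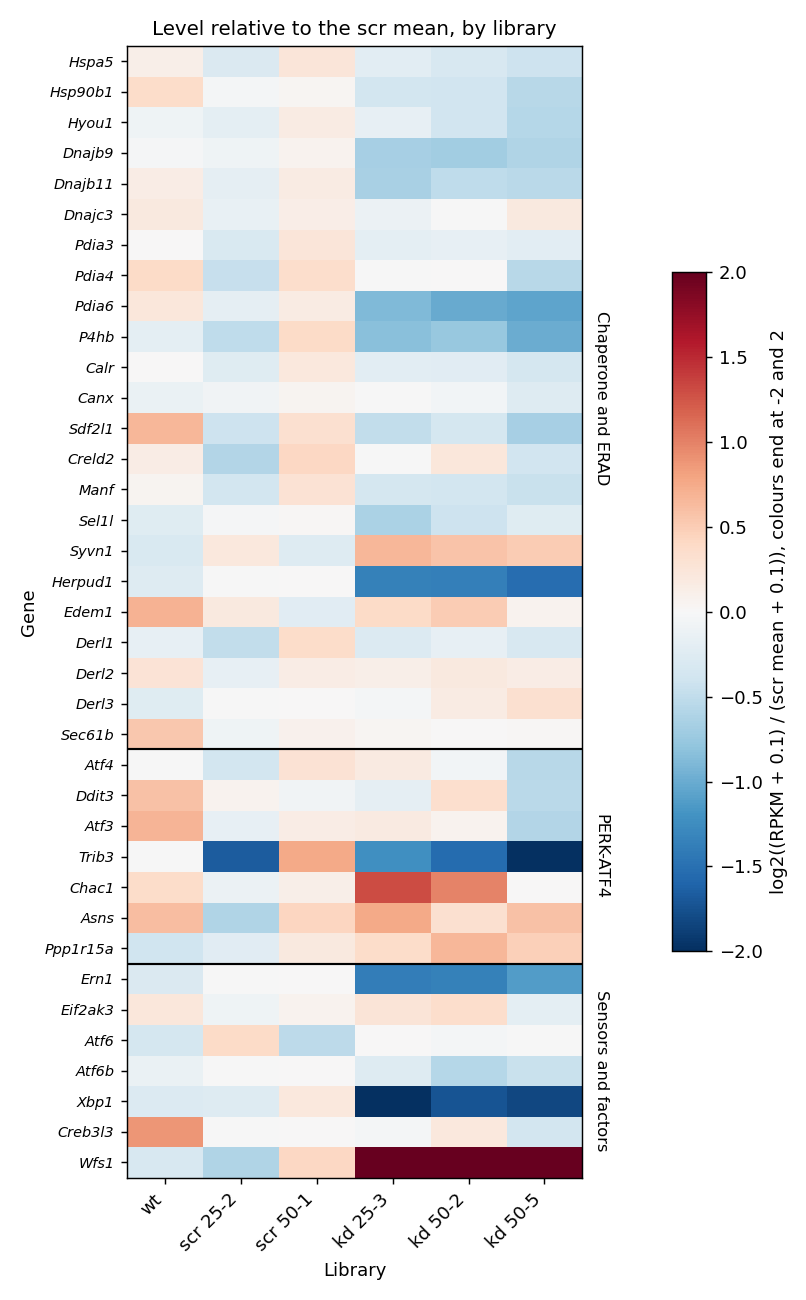
Level of all 37 genes (rows, by role) in the 6 libraries (columns) as log2 of RPKM over the scr mean, with 0.1 RPKM added and colours ending at -2 and 2. Herpud1, Pdia6, Ern1 and Xbp1 are blue in all 3 kd columns and Wfs1 is red beyond the end of the scale, whereas Trib3, Creld2, Pdia4 and P4hb differ between the scr columns.

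Other genes of the pathway were taken from lists of known function, also chosen with earlier results of these data known. Their counts stand beside the 5.25% of all genes called lower, the 5.33% called higher (9.89% and 9.93% in DESeq2) and the 31.4% at an unadjusted p under 0.05, and no test compared directions or lists. Of 31 ER folding and export genes tested, 4 fell and 0 rose, with a median log2 fold change of -0.18. They were Pdia5, a disulphide isomerase (log2 fold change -1.91, SE 0.392, FDR 0.0381), the cargo receptors Tmed10 (-0.97, SE 0.135) and Lman1 (-0.79, SE 0.150), and Sdf4 (-0.90, SE 0.184), a calcium-binding protein of the secretory pathway, each with an FDR under 0.05 in the edgeR quasi-likelihood test. DESeq2 called 8 of the 31 lower and 1 higher, and 13 of 31 had an unadjusted p under 0.05. Of 24 genes of ER entry and N-glycosylation, 2 fell and 0 rose. These were Ssr4, a subunit of the translocon-associated complex, with 141 and 263 RPKM in scr, against 79.8 to 84.0 in kd (log2 fold change -1.32, SE 0.259, FDR 0.0347), and Stt3b, a catalytic subunit of oligosaccharyltransferase (-0.90, SE 0.152). DESeq2 also called 0 of the 24 higher, and 4 had an unadjusted p under 0.05, a smaller share than over all genes.

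Of 24 further ERAD genes, 3 fell and 1 rose, DESeq2 called 3 lower and 2 higher, and 8 had an unadjusted p under 0.05. The lectins Erlec1 (log2 fold change -1.22, SE 0.151, FDR 0.0123) and Os9 (-0.67, SE 0.145), which bind glycoproteins for the HRD1 complex, fell together with the deglycosylating enzyme Ngly1 (-0.88, SE 0.181). Ube2j1, the membrane-bound ubiquitin-conjugating enzyme of ERAD, rose from 30.9 and 35.9 RPKM in scr to 59.6 to 71.9 in kd, a log2 fold change of 1.00 (SE 0.151, FDR 0.0188, edgeR quasi-likelihood test).

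Of 39 further ATF4 target genes tested, 3 fell and 1 rose, shares near those of all genes, with a median of -0.12. DESeq2 called 4 of the 39 lower and 2 higher, and 8 had an unadjusted p under 0.05. Psat1, an enzyme of serine synthesis, fell from 306 and 258 RPKM in scr to 93.9 to 148 in kd (log2 fold change -1.33, SE 0.235, FDR 0.0274), and Ddit4, an inhibitor of mTORC1 (-1.36, SE 0.239), and the mitochondrial enzyme Pck2 (-0.98, SE 0.156) also fell. Nupr1, a stress-induced chromatin protein, rose from 2.88 and 5.27 RPKM in scr to 13.5 to 17.2 in kd, a log2 fold change of 1.94 (SE 0.351, FDR 0.0287, edgeR quasi-likelihood test). Of 13 regulators of IRE1 and ATF6 tested, 1 fell, Crebrf (-0.92, SE 0.207, FDR 0.0473), a regulator of CREB3 factors. DESeq2 also called 1 of the 13 lower and 0 higher, and 4 had an unadjusted p under 0.05. By edgeR, 0 of 7 genes of the other eIF2α kinases and phosphatases and 0 of 10 ER stress cell death genes were called. At an unadjusted p under 0.05 there were 1 and 3, no larger a share than the 31.4% of all genes, and in DESeq2 0 and 1. Of 8 CREB3L3 target genes only 2 passed the filter, and 0 were called, with 1 at an unadjusted p under 0.05 and 1 called in DESeq2.

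Heat shock genes of the cytosol and mitochondria, with their transcription factor Hsf1, were examined as a list from outside the ER. Of 15 such genes, 3 (Hspa1a, Hspa1b and Hspb1) did not pass the filter and were not tested. Of the 12 tested, 1 rose and 0 fell, with a median log2 fold change of 0.23. DESeq2 called 2 of the 12 higher and 0 lower, and 5 had an unadjusted p under 0.05. Dnaja1, a cytosolic J-domain protein, rose from 14.8 RPKM (mean of scr) to 23.6 (mean of kd), a log2 fold change of 0.66 (SE 0.134, FDR 0.0376, edgeR quasi-likelihood test). The kd libraries were above all 3 controls in 5 of the 12 and below them in 1, where 20.1% and 19.7% of all genes were. In the ER folding and export list they were above in 0 of 31 and below in 13, in the ER entry and N-glycosylation list above in 1 of 24 and below in 8, and in the further ERAD list above in 3 of 24 and below in 10. The chaperone and ERAD list had 1 of 22 above and 6 below. For the further ATF4 targets it was 3 of 39 above and 10 below, and for the IRE1 and ATF6 regulators 3 of 13 above and 2 below. No test compared the lists.

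**Figure D5:**
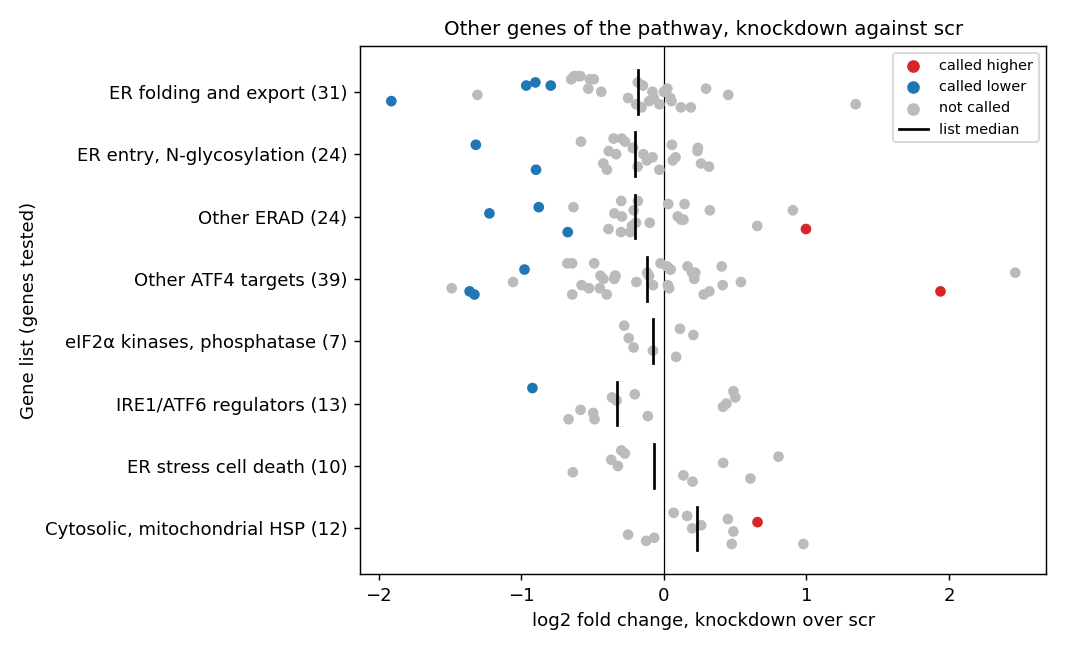
Log2 fold change of kd over scr for the tested genes of 8 other lists (1 point per gene, vertical lines for list medians, vertical offsets within a list for visibility only). Called genes are blue where lower and red where higher, and in the upper 3 lists 9 are blue and 1 is red.

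Parental cells were compared with the scr cells in the same fit. No gene of the 11647 was called in wt against scr by edgeR, where 899 had an unadjusted p under 0.05 (7.72%) and DESeq2 called 128 (1.1%). Of the 35 tested genes of the unfolded protein response, 0 were called and 2 had an unadjusted p under 0.05. With a single wt library, which was assumed to vary like the others, only large differences could be seen. For the genes called in kd, the log2 differences of wt from scr were -0.31 for Ern1, -0.30 for Xbp1, -0.28 for Herpud1, 0.21 for Pdia6, -0.05 for Dnajb9 and -0.36 for Wfs1.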

How the data were processed

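RNA-seq was made from ribosome-depleted RNA of 6 libraries with a KAPA RNA HyperPrep kit. For both deposited tables, the authors mapped single-end reads with TopHat2 to the mm10 genome, and gene counts against RefSeq came from HTSeq. The HTSeq version differs between the study's methods and the submitters' processing notes, and the strand setting is not given in the sources used here, so counts of overlapping genes are uncertain. The counts were deposited without normalization. The authors also deposited RPKM values, which were computed from TMM-scaled library sizes and were checked to equal the count per kilobase divided by 1 constant per library. Here RPKM was used for levels and counts for tests. Library columns were matched to samples by name, and 0 were left unmatched.

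All 6 libraries entered 1 fit with the groups wt, scr and kd (edgeR 4.0.16, R 4.3.3, quasi-likelihood test, TMM, Benjamini-Hochberg over 11647 genes). Calls needed an FDR under 0.05 together with a 1.5-fold change. These thresholds follow the study's methods. The study lists an RPKM over 1 in at least 1 sample among its criteria for a call. Here that limit decided which genes entered the fit and the adjustment. The study compared sh1 and sh2 with scr. The labels do not name these clones, so all 3 kd libraries were used. Standard errors were taken from each log2 fold change and its F statistic. Alternatives were DESeq2 1.42.0, other size factors and filters, other sets of libraries, the 25 or 50 of the titles as a term and each library left out in turn. The fit was also run on simulated counts drawn independently for each library. That run does not cover libraries that share a clone, and its outcome is not used here.

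P-values measure the spread between these libraries, for which the common biological coefficient of variation was 0.272; nothing says that they are separate cultures. The genes and lists were chosen with earlier results of these data known, and no set test was run. Named are all 37 genes and, of each other list, the called genes, up to 4 in each direction. Promoters were read from RefSeq sequences, and figures were drawn with matplotlib 3.10.9.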

Additional observations from a re-analysis of the deposited data

How the results depend on the processing

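The number of genes called depended on the libraries and the tool. DESeq2 called 1156 genes higher and 1152 lower, against 621 and 612 by edgeR, and in wt against scr it called 71 higher and 57 lower, against 0 and 0. With the title number (25 or 50), which scr and kd share, as a blocking term and wt left out, 419 genes were called higher and 388 lower, and of the 35 genes 1 and 4, Dnajb9 being the call lost. The labels do not say what that number marks. Leaving out 1 library at a time gave 79 to 1137 genes higher and 39 to 1134 lower, the fewest without kd 50-2 and the most without scr 25-2. Of the 35 tested genes of the unfolded protein response, 0 to 2 were then called higher and 1 to 10 lower. By list, 0 to 1 higher and 1 to 7 lower were chaperone and ERAD genes, 0 to 1 higher and 0 to 1 lower were PERK-ATF4 genes, and 0 to 1 higher and 0 to 2 lower were sensors and factors. Herpud1 was the gene called lower without kd 50-2. With wt joined to scr, 2 of the 35 were called higher and 6 lower, among them 1 (Syvn1) and 4 chaperone or ERAD genes, against 821 and 827 of all genes. With 1 library left out at a time, median log2 fold changes ranged from -0.45 to -0.0265 over the 35 genes, from -0.49 to -0.0270 for chaperones and ERAD and from -0.42 to -0.17 for sensors and factors, the ends coming from leaving out scr 25-2 or scr 50-1. For sensors and factors the median was -0.15 with filterByExpr. The PERK-ATF4 median ranged from -0.14 without kd 50-2 to 0.24 without scr 50-1 and so changed sign. The cause was not tested. None of the 6 called genes of the 37 reversed its direction in the 13 alternatives, and the genes of the other lists were not refitted one by one. With 2 scr libraries, changes of genes that differ between them, such as Trib3, P4hb and Atf6, could not be settled.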
